A study of Mus musculus with 3 samples.

Results

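The nuclear genes of oxidative phosphorylation were examined in single mouse embryonic stem cells, which are pluripotent cells from the blastocyst. Members were the protein-coding genes whose symbols begin with Nduf followed by a, b, c, s or v and a digit, with Uqcr, with Cox4 to Cox8 or with Atp5, together with Sdha, Sdhb, Sdhc and Sdhd. This gave 84 genes of the 29267 mouse gene identifiers in the files: 35 of complex I, 4 of complex II, 8 of complex III, 20 of complex IV (Ndufa4 and Ndufa4l2 are counted here) and 17 of complex V. The name rule leaves out Cyc1 and Ndufab1, which are subunits too, and takes in Cox7a2l, a supercomplex factor, and Atp5s, an assembly factor. All cells came from a C57BL/6J background with loxP-flanked alleles of Mll1 (Mll1fl/fl) and a tamoxifen-inducible Cre (Cre-ER TM). Mll1, now Kmt2a, encodes a histone H3 lysine 4 methyltransferase. The 3 groups shared each of 3 plates: Mll1fl/fl controls, Mll1-/- cells (deleted) and cells with Mll1 inhibition (inhibited). The inhibitor, its dose, its duration and the number of clones are not given in the labels.

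Oxidative phosphorylation couples the oxidation of NADH and succinate to the synthesis of ATP at the inner mitochondrial membrane. Complexes I, III and IV pump protons, complex II feeds electrons from succinate without pumping, and complex V, the ATP synthase, lets protons back to make ATP. Complex II is encoded by the nucleus alone, while the other complexes are assembled from nuclear subunits and a few subunits encoded by the mitochondrial genome. Mouse embryonic stem cells in culture are known to use both glycolysis and respiration.

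After filtering, 1513 control, 1310 deleted and 1590 inhibited wells were summed by plate and group to 9 libraries of 25914860 to 43773924 UMIs (unique molecular identifiers, each standing for 1 captured molecule). The median well held 36355 UMIs and 3933 genes. Levels are CPM, counts scaled by the size of the library. Kmt2a was measured at 50.2 to 54.7 CPM in control, 39.2 to 62.1 CPM in deleted and 40.6 to 46.7 CPM in inhibited libraries, which does not check the deletion because the deleted exons are not named. All 10 embryonic stem cell markers examined were at 1 CPM or more. Their summed level was 6288 to 6475 CPM in control, 5224 to 6665 CPM in deleted and 4658 to 5499 CPM in inhibited libraries. Most of this sum was Dppa5a (mean 4949 CPM), followed by Tdgf1 (274 CPM), so the ranges mainly follow 1 gene. Between 391 and 453 well barcodes were shared by any pair of plates, each at the same chip position. Deleted wells of plate 2 were the deepest by median (58507 UMIs) and deleted wells of plate 3 the shallowest (23556 UMIs).

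Promoter windows were available for 66 members (RefSeq, GRCm38.p6, 250 bases before to 50 after the start). They were searched on both strands for 4 motifs known from nuclear respiratory genes. The NRF1 motif GCATGCGC was found in 15.2% of member windows and in 3.61% of all 17492 protein-coding windows of the same length. The YY1 motif AAGATGGCG was found in 9.09% of member windows against 1.94%, and the ETS motif CCGGAAG, also bound by GABP, in 22.7% against 11.9%. The SP motif GGGCGG was found in 39.4% of member windows against 46.3%. A match is a description of the sequence, and motifs were allowed to overlap. The 150 bases before the start are shown for 1 member of each complex with a match, chosen to show how the motifs lie, and for the muscle isoform Cox8b, which has none there. Capitals mark the motifs, and each sequence runs 5′ to 3′ on the strand of its gene.
Ndufs3, chr2:90904722-90904871, minus strand: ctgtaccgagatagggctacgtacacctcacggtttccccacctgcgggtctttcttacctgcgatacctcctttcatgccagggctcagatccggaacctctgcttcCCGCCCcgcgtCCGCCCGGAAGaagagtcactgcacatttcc
Sdhb, chr4:140961121-140961270, plus strand: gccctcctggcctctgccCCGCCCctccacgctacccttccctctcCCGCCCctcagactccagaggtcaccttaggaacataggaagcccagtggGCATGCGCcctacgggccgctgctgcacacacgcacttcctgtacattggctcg
Uqcr11, chr10:80406822-80406971, minus strand: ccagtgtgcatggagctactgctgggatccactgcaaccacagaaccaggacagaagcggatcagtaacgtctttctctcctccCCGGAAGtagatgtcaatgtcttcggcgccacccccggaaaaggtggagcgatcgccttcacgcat
Cox6a1, chr5:115348959-115349108, minus strand: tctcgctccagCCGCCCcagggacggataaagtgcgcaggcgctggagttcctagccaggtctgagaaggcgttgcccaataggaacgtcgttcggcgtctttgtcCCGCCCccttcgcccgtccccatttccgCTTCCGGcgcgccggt
Atp5k, chr5:108434400-108434549, minus strand: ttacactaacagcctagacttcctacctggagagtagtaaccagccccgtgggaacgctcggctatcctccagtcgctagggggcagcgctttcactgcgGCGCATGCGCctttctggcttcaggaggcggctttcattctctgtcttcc
Cox8b, chr7:140900447-140900596, minus strand: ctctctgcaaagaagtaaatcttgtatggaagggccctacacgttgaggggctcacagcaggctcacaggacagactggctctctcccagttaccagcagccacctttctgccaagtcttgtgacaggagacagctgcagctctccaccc

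Ndufs3, a core subunit of complex I, had 1 ETS and 2 SP matches in these bases. Sdhb, the iron-sulfur subunit of complex II, had 1 NRF1 match and 2 SP matches. Uqcr11, a small subunit of complex III, had 1 ETS match, Cox6a1 had 1 ETS and 2 SP matches, and Atp5k, the e subunit of the ATP synthase, had the NRF1 motif on each strand in overlapping positions. The 84 members lie on 19 chromosomes, with 8 on chromosome 7 and 3 on the X chromosome.

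Nearly all of these genes were expressed. A mean of 10 CPM or more was measured for 77 of the 84 members, and together they took 3.41 to 3.99% of the UMIs of a library. The 7 others were Cox4i2, Cox6a2, Cox7b2, Cox8b, Cox8c, Ndufa4l2 and Atp5g2. Per kilobase of exon, the highest levels were those of Uqcr10 (1929 CPM per kb), Cox8a (1514), Uqcr11 (1285) and Cox4i1 (1279.7), all small subunits of complexes III and IV. In complex I the highest were Ndufa1 (956 CPM per kb) and Ndufs6 (914), in complex V Atp5k (819) and Atp5h (666), and in complex II Sdhb (149) and the membrane anchor Sdhd (147). The 7 core subunits of complex I, which carry its flavin and iron-sulfur clusters and line the quinone site, had a median of 55.0 CPM per kb (6.36 to 247). The 28 accessory subunits had a median of 296 CPM per kb (40.9 to 956). Without division by length the medians were 145 CPM for core and 301 CPM for accessory subunits. Exon length was taken over all annotated transcripts, and the labels do not say if 1 end of the transcripts was read, so levels per length of genes with long untranslated regions may be understated.

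Complex IV has paired subunits, 1 widely expressed and 1 restricted to muscle, lung, testis or low oxygen. In these cells the widely expressed form dominated each pair. Cox4i1 lay between 1833 and 2204 CPM over the 9 libraries, and its lung and low-oxygen form Cox4i2 at 1.18 CPM or less. Of 3971 wells thinned to 5869 UMIs, 99.7% held a Cox4i1 UMI (exact 95% interval 99.5 to 99.8%) and 0.277% a Cox4i2 UMI (0.138 to 0.495%). These intervals, like the other limits on shares, cover counting error only. The heart and skeletal muscle forms differed among themselves. Cox8b had no UMI in any of 4413 wells, which allows wells with a UMI to be up to 0.0680% (3 of the wells) and sets no limit on expression below detection, and Cox6a2 had 61 UMIs in 10 wells. Cox7a1 was present at 19.5 to 29.1 CPM, with UMIs in 9.54% of thinned wells. In the same pairs Cox8a had UMIs in 95.9% of thinned wells, Cox6a1 in 88.5% and Cox7a2 in 93.2%.

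Per kilobase of exon, Cox7a1 was at 43.1 CPM and Cox7a2 at 832 CPM. Cox6b2, described as the testis form, was at 37.3 CPM per kb against 1026 for Cox6b1, and 16.8% of thinned wells held a Cox6b2 UMI. Cox8c, also known from testis, was at 1.39 CPM per kb and Cox7b2 at 3.69, against 461 for Cox7b. Cox8c was uneven: deleted plate 1 held 2.56 CPM and deleted plate 2 held 0.0258 CPM, and its 190 UMIs came from 29 wells. Ndufa4 was at 673 CPM per kb, and its hypoxia-induced paralog Ndufa4l2 had 14 UMIs in 9 wells. The 15 wells without cells held 104 member UMIs in all and 0 of Cox4i2, Cox6a2, Cox7a1, Cox6b2, Cox7b2, Cox8c and Ndufa4l2. Muscle markers summed to at most 6.65 CPM in a library, mostly Myh6 at a mean of 3.48 CPM.

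The c ring of the ATP synthase, its rotor, is encoded by 3 genes that give the same mature protein. Atp5g1 (mean 903 CPM, 184 CPM per kb) and Atp5g3 (796 CPM, 365 CPM per kb) were both abundant, whereas Atp5g2 was at 0.793 CPM (0.474 CPM per kb), with 242 UMIs in 120 wells. The handling of reads with several matching genes is not given, so the level of Atp5g2 is uncertain. The same holds for members with processed pseudogenes. The pseudogene Ndufb4c held 449.8 CPM and its parent Ndufb4 147 CPM, and Atp5l2-ps held 322 CPM while Atp5l held 114 CPM. Over 10 pseudogenes with matching names the counts came to 2.64% of those of the members. Ndufs6b (86.9 CPM) and Cox6c2 (76.7 CPM) were the next highest, so Ndufs6 and Cox6c are uncertain as well.

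**Figure D1:**
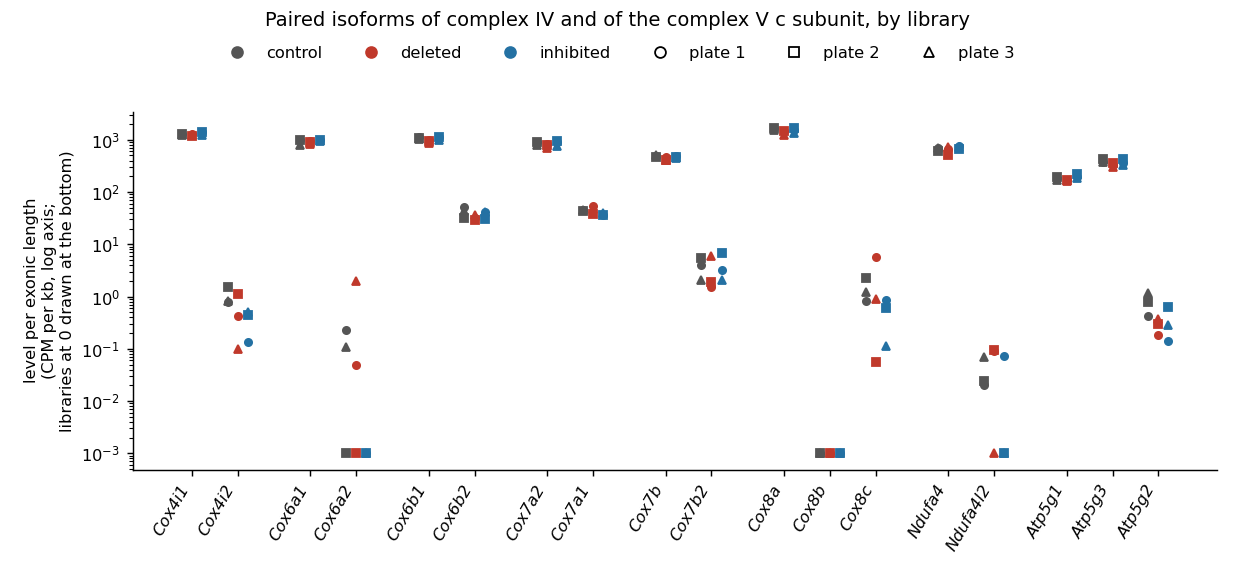
Level of each paired isoform per exonic length (CPM per kb, log axis) in each library, with colour for the group and symbol for the plate; libraries at 0 are drawn at the bottom. The widely expressed forms sit together at the top in all 9 libraries, Cox6b2 and Cox7a1 lie between, and Cox8b is at 0 throughout.

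The first comparison asked how these genes differ when Mll1 is deleted. Most were slightly lower in deleted than in control cells: the fitted log2 difference was below 0 for 69 of the 81 members tested, against 50% of all 17119 genes, with a median of -0.09. Summed over all members the level was 38760.0, 37791 and 36328 CPM on plates 1 to 3 of the controls and 36925, 33810.2 and 35584 CPM after deletion. Deleted cells were lower on every plate, with log2 differences of -0.07, -0.16 and -0.03, but their highest library exceeded the lowest control library. The sum of complex V was the 1 complex sum without overlap, at 10014, 10224 and 9552 CPM in control and 9357, 9199.9 and 9225 CPM in deleted cells (mean log2 difference -0.10 ± 0.05 SD). As shares of library UMIs, without TMM factors (edgeR's correction for library composition), the complex V sums did not overlap either. No member passed the threshold (adjusted p under 0.05 in edgeR's quasi-likelihood test with Benjamini-Hochberg adjustment), and 0.035% of all genes tested did. At an unadjusted p under 0.05, 16 members were lower and 0 higher, while 5.22% of all genes were lower and 5.11% higher by that rule. Among genes with a mean of 10 CPM or more, a level that 77 of the tested members reach, 7.84% were lower and 49.3% were fitted below 0. Of those 77 members 16 were lower by that rule and 65 were fitted below 0. DESeq2 called 1 of 83 members, Atp5g3, and 1.58% of all genes with an adjusted p, so the members' share was near that of all genes.

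The smallest p belonged to Atp5g3 of complex V, followed by Cox8a of complex IV and Uqcrb of complex III. Atp5g3 (chromosome 2, 73908447 to 73911326) was measured at 835, 921 and 814 CPM on plates 1 to 3 of the controls, at 717, 789 and 651 CPM after deletion and at 784, 921 and 730.2 CPM under inhibition. All 3 deleted libraries lay below all 3 control libraries, and the fitted difference was -0.25 ± 0.05 (log2, SE; adjusted p = 0.179). Its partner in the c ring, Atp5g1, also had no overlap, at 928, 957 and 837 CPM in control and 827, 828 and 801 CPM in deleted cells (-0.15 ± 0.06, adjusted p = 0.398). Atp5c1, the gamma subunit of the central stalk, was at 367, 458 and 433 CPM in control and 316, 416 and 339.6 CPM in deleted cells. Its groups overlapped, although each plate was lower (-0.24 ± 0.07, adjusted p = 0.298).

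In complex IV, which reduces oxygen, Cox8a (chromosome 19, 7215153 to 7217616) was at 1035, 1025 and 935 CPM in control and 919, 926 and 777 CPM in deleted cells, without overlap (-0.20 ± 0.05, adjusted p = 0.253). Cox6b1, a subunit on the intermembrane side, was at 784, 758 and 717 CPM and 695, 681 and 621 CPM, also without overlap (-0.18 ± 0.05, adjusted p = 0.284). Cox5a was the other member of this complex whose groups did not overlap (-0.19 ± 0.07). Cox4i1, the most abundant member, was at 1989.5, 2013 and 1873 CPM and 2001, 1833 and 1920.0 CPM (-0.03 ± 0.06, adjusted p = 0.92). The testis form Cox6b2 was at 57.1, 34.7 and 48.3 CPM and 35.4, 32.9 and 39.5 CPM, lower on each plate with overlap (-0.35 ± 0.13, adjusted p = 0.399). By complex, 7 of 17 tested members of complex IV and 5 of 17 of complex V were lower at an unadjusted p under 0.05. In complex I this held for 2 of 35, in complex III for 2 of 8 and in complex II for 0 of 4.

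Uqcrb and the hinge subunit Uqcrh led complex III. Uqcrb was at 628, 708 and 628 CPM in control and 572, 633 and 508 CPM in deleted cells (-0.20 ± 0.06, adjusted p = 0.275), and Uqcrh at 338, 347 and 320.0 and 311, 304 and 269 CPM (-0.18 ± 0.07, adjusted p = 0.381). The groups of Uqcrh did not overlap. In complex I the smallest p belonged to the accessory subunits Ndufa5 (-0.20 ± 0.07, adjusted p = 0.346) and Ndufa11 (-0.14 ± 0.06, adjusted p = 0.477). In complex II the catalytic flavoprotein Sdha was fitted above 0 (0.18 ± 0.10, adjusted p = 0.615) and Sdhd below it (-0.17 ± 0.08, adjusted p = 0.539). The groups did not overlap for 9 members, all lower: Atp5g1, Atp5g2, Atp5g3, Atp5l, Cox5a, Cox6b1, Cox8a, Ndufs5 and Uqcrh. By the same rule 5.52% of all genes tested were lower. Atp5g2 is below 10 CPM and of uncertain level. Without it 8 of the 77 members at 10 CPM or more are left, against 5.25% of all genes at that level. Of these 8, Atp5l and Uqcrh have processed pseudogenes, so their levels are uncertain too. Sdhc, the other membrane anchor of complex II, was the 1 member higher on all 3 plates (15.4% of all genes were). On all 3 plates 37 of 81 members were lower, against 16.3% of all genes. At 10 CPM or more 35 of 77 members were, against 18.5% of genes.

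Plate 2 held the largest differences. Without plate 2 the median over members was -0.04, and 8 members were lower at an unadjusted p under 0.05. Without plate 3 the count was 22, and without plate 1 it was 14. Each of these last 2 refits also had 1 member higher by that rule. Leaving out a plate changes the estimated spread of every gene, and the shares of all genes in these refits are not given here. Markers of other cell types were read in the same comparison, and 5 of 5 tested trophectoderm markers were fitted higher. None passed the threshold in edgeR's test (adjusted p from 0.466 for Krt7 to 0.834 for Tfap2c). Krt7, with the highest mean of them (25.3 CPM), was lower on plate 1, at 21.8 CPM in control and 19.3 CPM in deleted cells. The summed level of the list was 46.8 to 53.8 CPM in control and 61.5 to 85.9 CPM in deleted libraries. The fibroblast list summed to 2.89 to 7.64 CPM in control and 10.6 to 18.1 CPM in deleted libraries, but 2 of its 4 tested genes were fitted below 0 and the sum rests on Acta2 (mean 7.24 CPM, 1.73 ± 0.44, adjusted p = 0.225). The blood and endothelium list summed to 4.77 to 6.20 CPM and 8.39 to 10.4 CPM, mostly Pecam1. Of its other genes Kdr had a mean of 0.574 CPM, and Ptprc, Hbb-bs, Hba-a1 and Cdh5 means of 0.157 CPM or less. This sum therefore does not show that blood or endothelial cells were present. The endoderm list summed to 7.74 to 12.8 CPM in control and 11.5 to 15.3 CPM in deleted libraries. Of its tested genes 3 were fitted above 0 and 3 below. The part of other cells, and of the depth of plate 2, in the result was not tested.

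**Figure D2:**
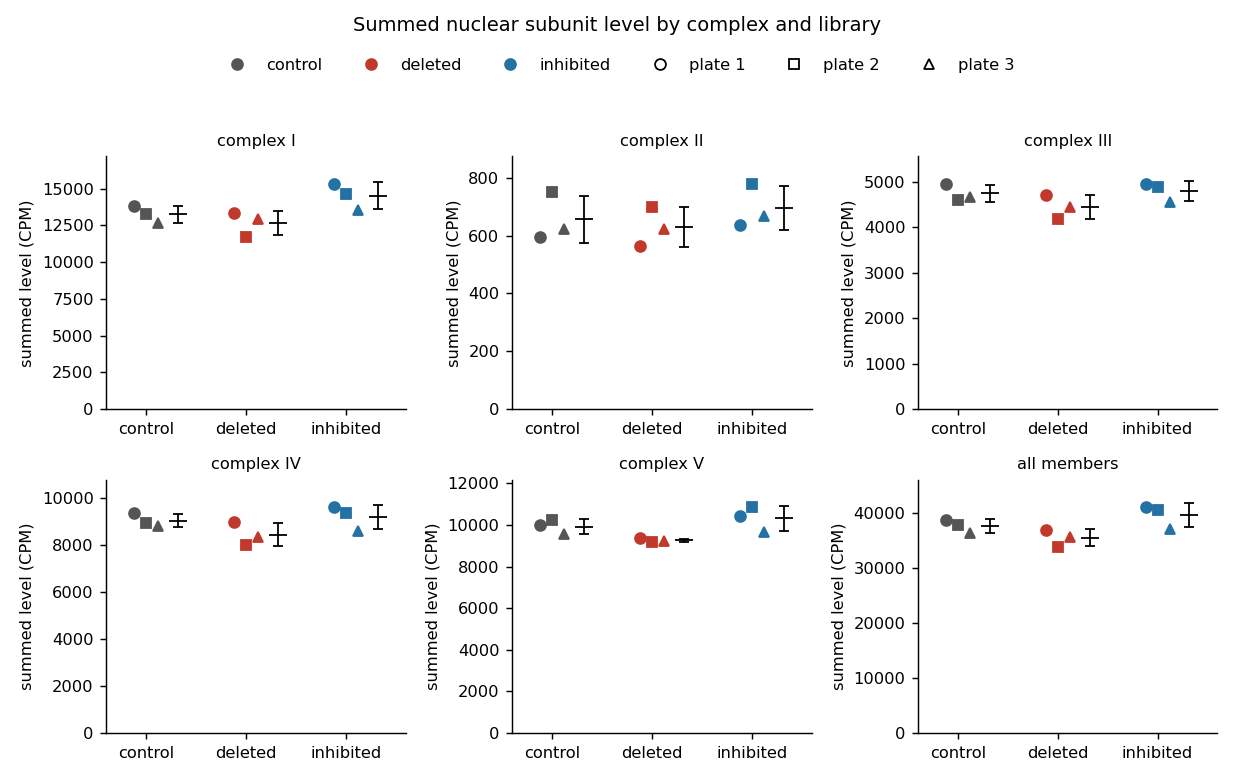
Summed level of the nuclear subunits of each complex and of all members (CPM) in each library, with colour for the group, symbol for the plate, and the mean and SD of 3 plates in black. Deleted libraries average 35439.8 CPM over all members, control libraries 37626 CPM and inhibited libraries 39539 CPM; control libraries overlap with both other groups there, while deleted and inhibited libraries do not overlap.

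The second comparison asked how the same genes differ when MLL1 is inhibited. Inhibited cells were slightly higher in complex I: 27 of its 35 members were fitted above 0, with a median of 0.12, and its summed level was 13843, 13247 and 12679 CPM on plates 1 to 3 of the controls and 15346, 14658 and 13561 CPM under inhibition. The differences within plates were 0.15, 0.15 and 0.10 (log2; mean 0.13 ± 0.03 SD). Plate 3 of the inhibited cells lay below plate 1 of the control cells, so the groups overlapped. The mean log2 differences of the other complexes were 0.08 ± 0.02 for complex II, 0.02 ± 0.06 for complex III, 0.02 ± 0.05 for complex IV and 0.06 ± 0.03 for complex V. These depend on the scaling: as shares of library UMIs, without TMM factors, the means were 0.08 for complex I, 0.03 for complex II, -0.03 for complexes III and IV and 0.01 for complex V, and over all members 0.02 in place of 0.07. Over all members, 52 of 81 were fitted above 0 (median 0.04), and 49.9% of all genes tested were. Among genes with a mean of 10 CPM or more that share was 56.8%, and 51 of 77 members at that level were fitted above 0. With wells thinned to equal depth the median over members was 0.00, with 41 of 78 above 0, and the median of complex I was 0.09, with 24 of 35 above 0. No member passed edgeR's threshold (0.00584% of all genes did). At an unadjusted p under 0.05, 15 members were higher and 1 lower, against 4.77% of all genes higher and 4.23% lower, and 8.68% higher among genes at 10 CPM or more. Thinning gave 10 higher and 3 lower of 78 members, and the shares of all genes by that rule are not given for that fit. On all 3 plates 32 members were higher, against 16.6% of all genes and 24.1% of those at 10 CPM or more. DESeq2 called 1 of 83 members, Ndufb8, and 1.27% of all genes with an adjusted p, so the members' share was near that of all genes.

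Of these 15, 10 belong to complex I, which holds 35 of the 81 tested members. Ndufa12 (chromosome 10, 94198720 to 94221443), an accessory subunit and the most abundant member of the complex, was measured at 1353, 1306 and 1087 CPM on plates 1 to 3 of the controls, at 1343, 1145 and 1087 CPM after deletion and at 1573, 1573 and 1247 CPM under inhibition. Inhibited cells were higher on each plate, but inhibited plate 3 was below control plates 1 and 2 (0.23 ± 0.06, adjusted p = 0.355). Ndufb8 (chromosome 19, 44548572 to 44555440), an accessory subunit of the membrane arm, was measured at 515, 515 and 445 CPM on plates 1 to 3 of the controls, at 486, 478 and 526 CPM after deletion and at 625, 621 and 557 CPM under inhibition. All inhibited libraries exceeded all control libraries (0.29 ± 0.08, adjusted p = 0.355). Ndufa13, also known as GRIM-19, was at 776, 733 and 722 CPM in control and 923, 817 and 799.9 CPM in inhibited cells, again without overlap (0.18 ± 0.06, adjusted p = 0.374).

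Uqcrc1, a core protein of complex III, was at 272, 385 and 333 CPM in control and 351, 482 and 369 CPM in inhibited cells (0.28 ± 0.08, adjusted p = 0.364). The Rieske iron-sulfur protein Uqcrfs1 was fitted at 0.17 ± 0.08 (adjusted p = 0.551). In complex V the smallest p were those of Atp5f1, the b subunit of the peripheral stalk (0.18 ± 0.06, adjusted p = 0.426), and Atp5d, the delta subunit of the central stalk (0.26 ± 0.10, adjusted p = 0.453), both without overlap. In complex II, Sdha was at 83.5, 90.4 and 89.4 CPM and 91.3, 97.4 and 104 CPM without overlap (0.15 ± 0.10, adjusted p = 0.723), and Sdhb was fitted at 0.12 ± 0.08 (adjusted p = 0.708).

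In complex IV, Cox5a was the 1 member lower at an unadjusted p under 0.05 (-0.17 ± 0.07, adjusted p = 0.495), and Cox8a was fitted at -0.09 ± 0.05 (adjusted p = 0.655). Cox7a1 was lower without overlap, at 24.7, 23.4 and 24.4 CPM in control and 19.5, 19.5 and 21.3 CPM in inhibited cells (-0.26 ± 0.15, adjusted p = 0.668). Over all complexes the groups did not overlap for 11 members higher and 2 lower, against 5.02 and 6.23% of all genes tested; 7.32% of genes at 10 CPM or more were higher. The count of 15 higher was 5 without plate 1, 6 without plate 2 and 17 without plate 3. The shares of all genes in these refits are not given here. Of the 10 stem cell markers 6 were fitted below 0 in the same comparison and 4 above. Nanog, a pluripotency factor, was fitted at -0.84 ± 0.21 and Dppa5a, the most abundant of them, at -0.38 ± 0.09 (adjusted p = 0.355 for both). The part of these in the result was not tested.

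**Figure D3:**
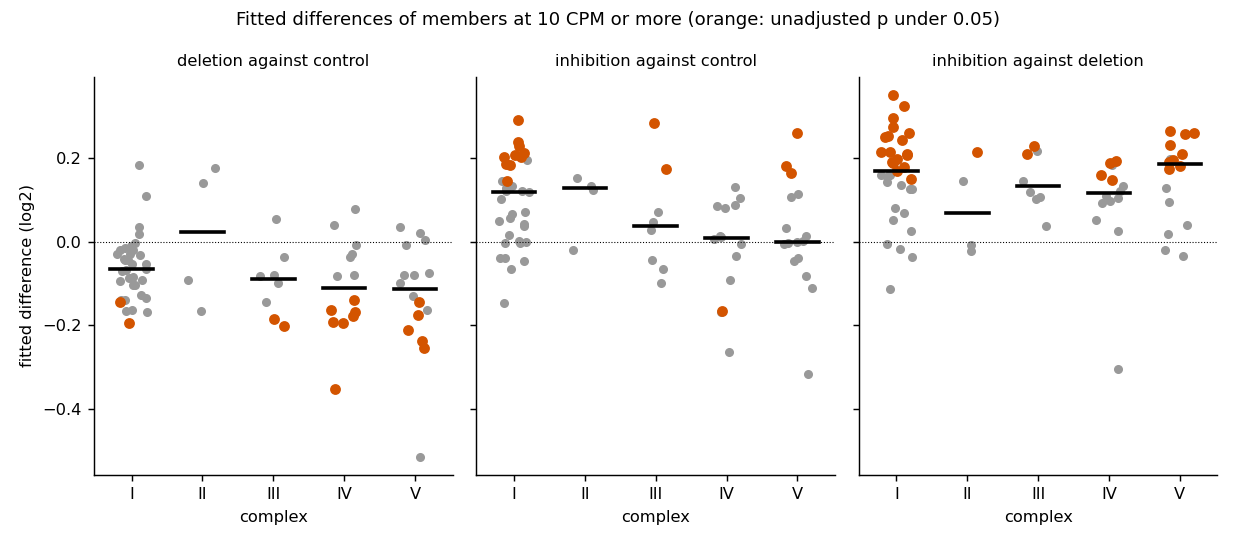
Fitted log2 difference of each member with a mean of 10 CPM or more, by complex, in the 3 comparisons; black bars are medians and orange points have an unadjusted p under 0.05. Orange points lie below 0 in deletion against control, in complexes I, III, IV and V. They lie above 0 in the other panels, apart from Cox5a under inhibition. Complex I, the largest, holds the largest number of them there. In the last panel 18 of its 35 tested members have an unadjusted p under 0.05, against 9 of 17 tested in complex V.

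The third comparison set inhibited directly against deleted cells, and so tested whether inhibition and deletion differ. Inhibited cells were higher: 70 of 81 members were fitted above 0, with a median of 0.16, against 49.6% of all genes tested. With a mean of 10 CPM or more 68 of 77 members were, against 55.1% of genes. The summed level of all members was 36925, 33810.2 and 35584 CPM in deleted and 41010.4, 40535 and 37072 CPM in inhibited cells on plates 1 to 3, and the groups did not overlap. As shares of library UMIs they did overlap, at 3.74, 3.41 and 3.62% in deleted and 3.99, 3.87 and 3.71% in inhibited cells, while the sums of complexes I and V did not. Differences within plates were 0.15, 0.26 and 0.06 (log2). No member passed edgeR's threshold, and 0.31% of all genes did. At an unadjusted p under 0.05, 34 members were higher and 0 lower, against 6.98% of all genes higher and 6.68% lower. Among genes with a mean of 10 CPM or more, 12.5% were higher. Of the 34, 18 are in complex I (of 35 tested) and 1 is in complex II (of 4). Complex III holds 2 (of 8), complex IV 4 (of 17) and complex V 9 (of 17). Markers of other cell types were read here too, and 5 of 6 endoderm, 4 of 5 trophectoderm and 2 of 2 blood and endothelium markers tested were fitted below 0. Of the 6 endoderm markers, all except Dab2 had means of 1.35 CPM or less. The sums of that list overlapped, at 11.5 to 15.3 CPM in deleted and 9.04 to 15.4 CPM in inhibited libraries. The trophectoderm list summed to 61.5 to 85.9 CPM in deleted and 51.1 to 59.4 CPM in inhibited libraries. The blood and endothelium list, mostly Pecam1, summed to 8.39 to 10.4 and 2.87 to 3.34 CPM. Pecam1 was fitted at -1.61 ± 0.29 (adjusted p = 0.0595), Acta2 at -1.60 ± 0.43 (adjusted p = 0.153), Krt7 at -0.92 ± 0.23 (adjusted p = 0.128) and Nanog at -0.68 ± 0.21 (adjusted p = 0.19). Their part in the result was not tested. All 9 libraries share the estimate of spread and each group enters 2 of the 3 comparisons, so the comparisons are not independent.

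Ndufa12, whose values are given above, had the smallest p (0.29 ± 0.06, adjusted p = 0.0788). Atp5g1 (chromosome 11, 96068852 to 96075670) was at 827, 828 and 801 CPM in deleted and 961, 1072 and 913 CPM in inhibited cells, without overlap (0.26 ± 0.06, adjusted p = 0.0912). Ndufa13 had no overlap either (0.25 ± 0.06, adjusted p = 0.101). Atp5o, the OSCP subunit that joins the peripheral stalk to the catalytic head, was at 722, 770.4 and 807 CPM and 905, 997 and 864 CPM without overlap (0.26 ± 0.07, adjusted p = 0.133). Cox6b1 led complex IV with 695, 681 and 621 CPM and 788, 795 and 699.8 CPM (0.19 ± 0.05, adjusted p = 0.148), followed by Cox7a2 (0.16 ± 0.05, adjusted p = 0.237). In complex III these were Uqcrc1 (0.23 ± 0.08, adjusted p = 0.225) and Uqcrfs1 (0.21 ± 0.08, adjusted p = 0.27), and in complex II Sdhb (0.21 ± 0.08, adjusted p = 0.267) and Sdhd (0.14 ± 0.08, adjusted p = 0.482).

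The groups did not overlap for 14 members, all higher in inhibited cells, against 5.39% of all genes tested and 7.19% of those at 10 CPM or more. On all 3 plates 48 members were higher, against 17.5% of all genes and 24.1% of those at 10 CPM or more. Members passed the threshold in other fits. DESeq2 called 7 (Ndufa12, Ndufa13, Ndufb8, Ndufb10, Ndufs3, Atp5g1 and Atp5o), edgeR without a filter on low counts called 5, and edgeR on wells thinned to equal depth called Ndufa12, Ndufb8 and Ndufb10. The same fits called 3.05, 1.31 and 1.57% of all genes with an adjusted p. Of members they called 8.43% of 83, 6.02% of 83 and 3.85% of 78. Shares among genes at 10 CPM or more, where most members lie, are not given for these fits. In edgeR's main fit 0.66% of such genes passed, against 0.31% of all genes. The shares of all genes are therefore not matched to the level of the members. Ndufb10, an accessory subunit of the membrane arm, had the largest fitted difference of the complex, with 558, 615 and 575 CPM in deleted and 821, 841 and 593 CPM in inhibited cells (0.35 ± 0.09, adjusted p = 0.128); plate 3 of the inhibited cells lay within the range of the deleted cells. Ndufs3 was at 75.2, 72.3 and 90.8 CPM and 94.0, 93.0 and 111 CPM without overlap (0.32 ± 0.08, adjusted p = 0.141). Ndufb10 and Ndufs3 are named for these calls, after their values were seen. The count of 34 was 5 without plate 2, 15 without plate 1 and 43 without plate 3, where Atp5o, Ndufb8 and Ndufb10 passed (0.421% of all genes did). Over all genes edgeR's threshold was passed by 53 with all plates. Without plate 2 it was passed by 0, without plate 1 by 5 and without plate 3 by 73. The changes in count are therefore not read as a trait of the members.

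Messenger RNAs of subunits encoded by the mitochondrial genome were at higher levels in deleted cells. They summed to 25212, 28533 and 25333 CPM in control cells and 31068, 30589 and 30061 CPM in deleted cells on plates 1 to 3, without overlap. Of the 13 mitochondrially encoded subunits, mt-Co2, mt-Co3, mt-Atp6 and mt-Atp8 held under 1 CPM each, beside 3728 CPM for mt-Co1 and 8658 CPM for mt-Cytb (means of all libraries). The handling of reads with several matching genes and of strand is not given, so their levels are uncertain, and all sums, ratios and shares of wells below are in effect without these 4. The number of nuclear subunit UMIs per mitochondrially encoded UMI was 1.54, 1.32 and 1.43 on plates 1 to 3 of the controls, 1.19, 1.11 and 1.18 after deletion and 1.57, 1.38 and 1.31 under inhibition. Each deleted library lay below each control and each inhibited library. The log2 difference of this ratio was -0.37, -0.26 and -0.28 for deletion on plates 1 to 3 (mean -0.30 ± 0.06 SD) and 0.03, 0.06 and -0.13 for inhibition (mean -0.01 ± 0.10 SD). As sums over chosen genes these carry no p. In edgeR's test 0 of the 10 mitochondrially encoded messenger RNAs tested passed the threshold in any comparison. In deletion against control 6 were higher at an unadjusted p under 0.05 (5.11% of all genes). DESeq2 called mt-Co1 and mt-Nd4 there (1.58% of all genes). In inhibition against deletion 5 were lower (6.68% of all genes), and DESeq2 called mt-Co1 and mt-Nd5 (3.05%). In inhibition against control 3 were higher and 1 lower (4.77 and 4.23% of all genes), and DESeq2 called 0.

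By complex, the differences varied least between plates in complex IV. It was 2.73, 2.42 and 2.70 in control and 2.14, 1.87 and 2.08 in deleted cells, with log2 differences of -0.35, -0.37 and -0.37. This ratio rests on mt-Co1, which was at 3460 ± 223 CPM in control and 4152 ± 139 CPM in deleted cells (SD, n = 3), because mt-Co2 and mt-Co3 held 0.0570 and 0.361 CPM on average. For complex I the log2 differences were -0.40, -0.29 and -0.23, and for complex III, where the partner is mt-Cytb, -0.30, -0.16 and -0.29. In both of these the groups overlapped across plates although every plate was lower. Of the complex I partners, mt-Nd4 was at 4158 ± 352 CPM in control and 5447 ± 185 CPM in deleted cells. No ratio was formed for complex V, since mt-Atp6 and mt-Atp8 held 0.0885 and 0.00764 CPM, nor for complex II, which has no such partner.

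**Figure D4:**
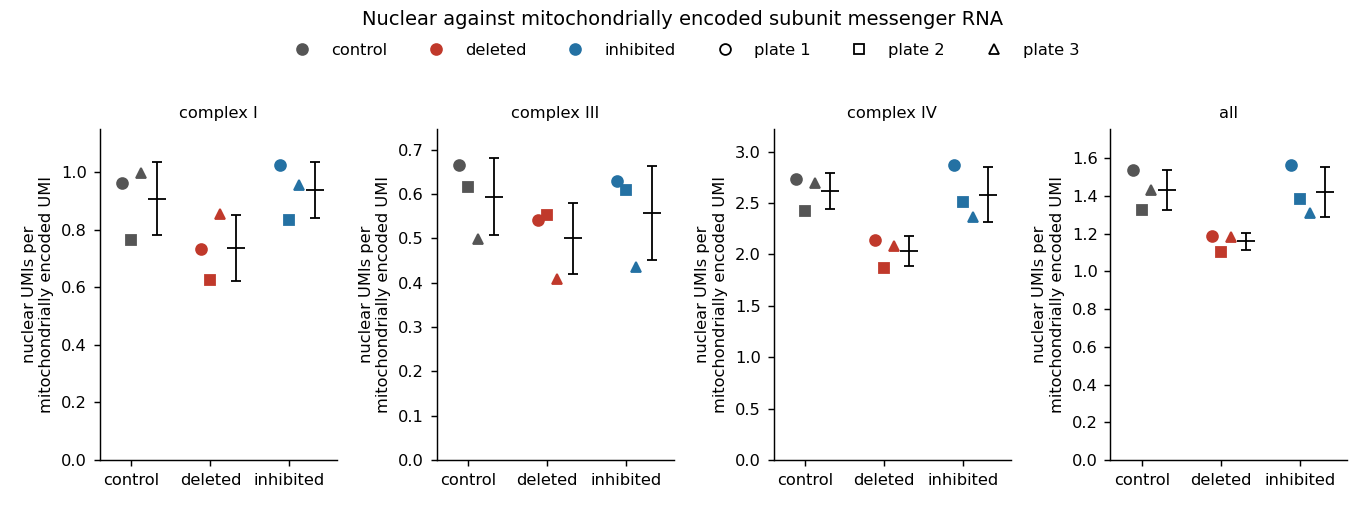
Nuclear subunit UMIs per UMI of the mitochondrially encoded messenger RNAs of the same complex, and over all, in each library, with colour for the group, symbol for the plate, and the mean and SD of 3 plates in black. Over all genes the 3 deleted libraries sit between 1.11 and 1.19 and the other 6 between 1.31 and 1.57.

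The difference was also present in the typical well. The median well ratio was 1.82, 1.56 and 1.66 on plates 1 to 3 of the controls, 1.53, 1.28 and 1.45 after deletion and 1.79, 1.58 and 1.54 under inhibition. Nuclear subunit UMIs outnumbered mitochondrially encoded ones in 89.5, 87.1 and 90.2% of control wells, in 77.5, 72.6 and 74.9% of deleted wells and in 89.1, 83.4 and 82.2% of inhibited wells. The median share of UMIs from the mitochondrial genome was 3.06 to 3.18% in control, 3.81 to 4.16% in deleted and 3.24 to 3.48% in inhibited libraries. In the 86 wells left out for a high mitochondrial share, nuclear subunits took a median of 3.02% of the UMIs of nuclear genes, against 3.97% in kept wells. In pooled wells, fewer cells of a kind and less RNA per cell cannot be told apart.

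Across the wells of a library, the shares of the nuclear complexes were correlated with each other, complex II aside, and not positively with those of their mitochondrially encoded partners in most libraries. The median Spearman correlation over the 9 libraries between the shares of UMIs of complexes I and IV was 0.49 (0.37 to 0.57), with the range over libraries in parentheses. It was 0.40 (0.26 to 0.52) for complexes I and III, 0.39 (0.30 to 0.54) for I and V, and 0.35 (0.23 to 0.48) for IV and V. Complex II, which held 656 CPM in control cells and so few UMIs per well, showed almost none, at 0.04 (-0.05 to 0.12) with complex I. Mitochondrially encoded subunits of complexes I and III correlated at 0.60 (0.56 to 0.68). All nuclear against all mitochondrially encoded subunits gave -0.18 (-0.29 to -0.01), and -0.09 (-0.18 to 0.07) with the nuclear genes taken as a share of nuclear UMIs. Nuclear subunits correlated with cytosolic ribosomal protein genes at 0.40 (0.32 to 0.49) and with the total of the well at -0.12 (-0.19 to 0.07). Each library spans 338 to 617 wells that share preparation but differ in depth. Shares of 1 total also constrain each other, so these values are descriptions. Thinning wells to equal depth gave 0.38 (0.26 to 0.55) for complexes I and IV.

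**Figure D5:**
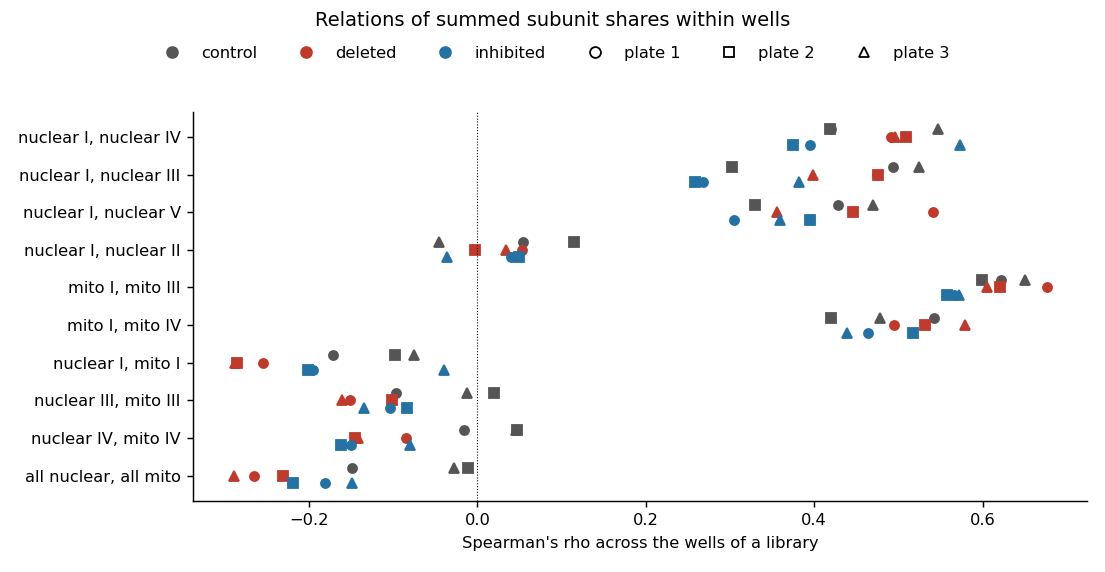
Spearman correlation across the wells of each library between shares of UMIs (horizontal axis), for pairs of nuclear and mitochondrially encoded (mito) subunit sums, with colour for the group and symbol for the plate. Pairs within the nuclear genome, complex II aside, and within the mitochondrial genome lie above 0 in all 9 libraries, and nuclear with mitochondrially encoded pairs lie near or below 0.

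Other genes of the pathway were read from lists of carriers, assembly factors and regulators, and 0 of the 67 tested passed edgeR's threshold in any of the 3 comparisons. At an unadjusted p under 0.05, 7 were lower and 0 higher after deletion, 2 lower and 6 higher after inhibition, and 1 lower and 12 higher in inhibited against deleted cells. The shares over all genes are those given for the members, about equal numbers of all genes being fitted above and below 0, and counts such as 8 of 14 or 10 of 17 below are near that. DESeq2 called Ndufaf2 in the first of these and Atpif1 and Cyc1 in the last. All 4 genes of the list of carriers were fitted below 0 after deletion and above 0 in both comparisons of inhibited cells. They are the subunits Cyc1 and Ndufab1, the carrier Cycs and the inhibitor Atpif1. The smallest p after deletion were those of Atpif1, the inhibitor of ATP synthase reversal, at -0.15 ± 0.06 (adjusted p = 0.422), and Ndufab1, the mitochondrial acyl carrier protein, at -0.20 ± 0.08 (adjusted p = 0.426). Cytochrome c1, Cyc1, was fitted at 0.21 ± 0.08 after inhibition (adjusted p = 0.493). Of the 14 complex I assembly factors 8 were fitted below 0 after deletion, with the smallest p for Ndufaf2 (-0.39 ± 0.10, adjusted p = 0.24), and 7 above 0 after inhibition, with the smallest for Ndufaf3 (0.45 ± 0.15, adjusted p = 0.409). All 6 complex III assembly factors were fitted above 0 in inhibited against deleted cells, among them Uqcc2 (0.25 ± 0.07, adjusted p = 0.17) and Uqcc3 (0.30 ± 0.09, adjusted p = 0.178).

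Of the 17 tested complex IV assembly factors 10 were fitted below 0 after deletion and 10 after inhibition, with the smallest p for Coa7 (-0.28 ± 0.11, adjusted p = 0.426) and Coa3 (0.25 ± 0.10, adjusted p = 0.482). The 4 complex II and 3 complex V assembly factors had 2 and 3 fitted below 0 after deletion. Among 19 tested regulators of mitochondrial gene expression, 13 were fitted below 0 after deletion. Ssbp1, the mitochondrial single-stranded DNA binding protein, was fitted at -0.22 ± 0.08 (adjusted p = 0.384), and Tfam, which packages mitochondrial DNA and starts its transcription, at -0.21 ± 0.11 (adjusted p = 0.554). Nrf1, whose motif was searched above, was fitted at -0.00 ± 0.11 after deletion and 0.27 ± 0.11 after inhibition (adjusted p = 0.996 and 0.518).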

How the data were processed

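Per the labels, single embryonic stem cells of 3 types were processed on 3 plates, with reverse transcription in wells and Nextera XT libraries. The submitters' processing notes name build mm10, the aligner STAR (2.5.2b) and featureCounts with Subread (1.4.6-p1). The treatment of strand and of multiply matching reads is not stated there. The deposited tables hold raw UMI counts for each gene in each well, which the authors did not normalise, and the deposited plate reports give the counts of genes and UMIs and the type of each well.

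Identifiers were named from GENCODE M21 (28682 of 29267 matched; 585 did not). Spike-in and reporter sequences (0.752, 0.690 and 0.646% of UMIs on plates 1 to 3) were left out. Of 4610 wells, 4413 with at least 1000 genes and under 20% mitochondrial UMIs were kept; no doublet caller was run. Counts were summed by plate and type to 9 libraries of 25914860 to 43773924 UMIs, which limits counting error but not the spread between plates. They were tested over all genes with edgeR 4.0.16 in R 4.3.3 (TMM, filterByExpr, quasi-likelihood F test, plate as a block, Benjamini-Hochberg adjustment, threshold 0.05), which 17119 genes and 81 members entered. Each type is on each plate, and libraries of the same plate deviated together (correlations 0.126 to 0.210 over 9 pairs; -0.125 to -0.0067 over 18 pairs of different plates), so plates pair the samples. The labels do not say that plates are separate cultures, so the p-values cover the spread between these plates only, and that spread may be technical. The fit was also run on simulated counts without a plate effect. The changes planted there were larger than those fitted for members at 10 CPM or more, so it does not bear on differences of their size.

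Signs on each plate used log2 of CPM plus 0.5. Sums and ratios over members are descriptions with no p. The members, lists and tests were chosen with earlier results of these data known. Members named were, in each complex and comparison, the 2 with the smallest p among those with a mean of at least 10 CPM, the 2 highest per length, and the paired isoforms; up to 2 genes of each other pathway list were named, and others for counts of 5 or fewer. Alternatives were DESeq2, other scalings and filters, thinned wells, no block and leaving out each plate. Promoter sequences are from RefSeq, GRCm38.p6.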

Additional observations from a re-analysis of the deposited data

How the results depend on the processing

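Counts of members past the threshold were 0 in all 3 comparisons. Other settings gave 1 with DESeq2 for deletion and 1 for inhibition, and for inhibition against deletion 7 with DESeq2, 5 without a filter on low counts and 3 with wells thinned to equal depth; leaving out 1 plate gave 0 to 3. DESeq2 called 1.58, 1.27 and 3.05% of all genes in the 3 comparisons, so its single calls are no more than the share of all genes. Without the replicate block 0 members passed in each comparison, so pairing by plate changed no call of a member. In that setting 1, 2 and 8 members had an unadjusted p under 0.05 in place of 16, 16 and 34. Shares of all genes by that rule are not given for this setting. Over all genes 0, 0 and 3 passed the threshold there, in place of 6, 1 and 53. With library totals without TMM factors, a setting added after seeing the data, the summed level of all members under inhibition differed from control by 0.0203 in place of 0.0706 (log2); the same setting gave -0.08 for deletion and 0.10 for inhibition against deletion. The ratio of nuclear to mitochondrially encoded UMIs after deletion lay between -0.36 (mean over wells) and -0.25 (stricter well filter) in every setting run. Under inhibition its mean of -0.01 had no stable sign, at -0.05 to 0.05 with 1 plate left out. With wells thinned to equal depth the median over members under inhibition was 0.00 in place of 0.04. The 7 members below 10 CPM rest on 0 to 645 UMIs. The causes of these differences were not tested.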
